A study of Homo sapiens with 12 samples.

Results

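The cytoplasmic RNA of HEK293T cells that carried K700E SF3B1 was compared with that of cells that carried wild-type (WT) SF3B1. The comparison took the libraries whose titles name the cytoplasmic fraction, 3 from K700E cells and 3 from WT cells, which are 6 of the 12 libraries of the series. The other 6 are the nuclear RNA of the same construct groups. HEK293T is a transformed human embryonic kidney line. Its cells were transfected transiently with the plasmid pIRES2-SF3B1, WT or K700E, using Lipofectamine 2000, and RNA was taken 48 h later with Trizol and made into NEBNext Ultra libraries. Every group therefore received a plasmid that encodes SF3B1, and WT is a transfected group and not an untreated one. The cells keep their own SF3B1 gene, and counts per gene cannot part its mRNA from that of the plasmid. Whether the 3 libraries of each group are separate cultures is not stated in the labels, and p-values then reflect the spread between libraries alone, which could be technical.

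SF3B1 is the largest subunit of the SF3b complex of the U2 snRNP, the particle that recognises the branch point of an intron. Among the SF3B1 substitutions found in myelodysplastic syndromes and leukaemias, K700E is the most common, and it is known for the use of cryptic 3′ splice sites. An mRNA reaches the cytoplasm only after it has been capped, spliced, polyadenylated and handed to export factors such as the THO and TREX complexes and NXF1, and the series title concerns this export step. What is measured here is the amount of each gene's RNA that was in the cytoplasmic fraction, which depends on transcription, processing, export and decay together. In bulk RNA, fewer cells that express a gene and less RNA per cell cannot be told apart.

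The 6 cytoplasmic libraries held 13422598 to 18116929 counts, and 23263 to 24210 genes had at least 1 count. Levels below are CPM, read counts scaled to the size of the library by TMM. SF3B1 stood at 8595, 8512 and 6963 CPM in the WT libraries and at 5904, 7116 and 7237 CPM in the K700E libraries. The groups overlapped and the log2 difference of -0.25 did not pass (exact permutation test of 3 against 3, two-sided, p = 0.3, adjusted p = 0.4 over 3 tests, smallest possible p = 0.1). The RNA of 10 long non-coding genes listed as nuclear-retained summed to 256, 314 and 243 CPM in WT and to 332, 341 and 259 CPM in K700E (exact permutation p = 0.2, adjusted p = 0.4). OIP5-AS1, at a mean of 140 CPM, was the largest part of this sum. In WT it was at a mean of 121 CPM in the cytoplasm and 164 CPM in the nucleus, where MALAT1 was at 44.4 and 4372 CPM. The sum is therefore a poor measure of nuclear RNA in the fraction. The libraries numbered 3 stood apart from the other 4. They lay at 38.6 (WT) and 39.8 (K700E) on the first principal component, which held 39.3% of the variance, and the others lay between -31.1 and -3.39. Their values rose with transcript GC content, by 0.19 and 0.27 log2 units per 10 percentage points, where the slopes of the others lay between -0.18 and -0.04. Results are therefore also given without both libraries numbered 3, an alternative chosen after the data were seen.

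**Figure D1:**
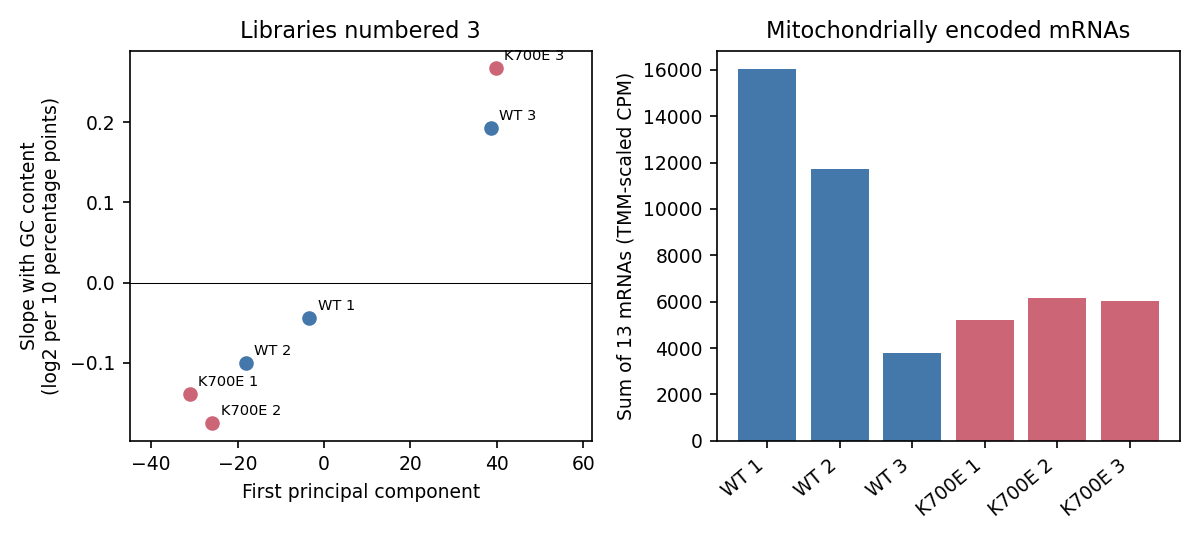
Left, each cytoplasmic library by its score on the first principal component and by the slope of its values with transcript GC content (log2 units per 10 percentage points), with the libraries numbered 3 of both groups at the upper right. Right, the summed level of 13 mitochondrially encoded mRNAs in each library (TMM-scaled CPM), where WT libraries 1 and 2 stand above the other 4.

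The first question was which genes differed in the cytoplasm between the constructs. Of 15200 genes tested with edgeR's quasi-likelihood test, 0 had a Benjamini-Hochberg adjusted p under 0.05 (0%), and the smallest adjusted p, 0.25, belonged to a gene with no symbol in the tables used. An unadjusted p under 0.05 was given to 1373 genes (9.03%), of which 748 were higher with K700E (4.92%) and 625 lower (4.11%). The groups did not overlap for 1164 genes that were higher (7.66%) and 1207 that were lower (7.94%). Other fits of the same counts made calls. DESeq2 called 53 genes (0.349%), 33 of them higher (0.217%) and 20 lower (0.132%), limma voom with library quality weights called 29, and without both libraries numbered 3 edgeR called 359 (2.35%), 150 of them higher (0.982%) and 209 lower (1.37%). Of the 53 DESeq2 calls, 48 were also called without both libraries numbered 3, which is 90.6% of the first set and 13.4% of the second. The median standard error of a log2 fold change was 0.22 and the median half-width of its 95% interval was 0.50, so a difference of less than that size lay within the unadjusted interval of the median gene. Since no gene passed the edgeR test with all 6 libraries, the values below are given as levels and differences with their errors, and a count at p under 0.05 uses the unadjusted edgeR p. The background of such a count is the share of all genes tested that passed in the same direction. All lists were chosen with earlier results of these data known, so their counts describe them and are no independent test.

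**Figure D2:**
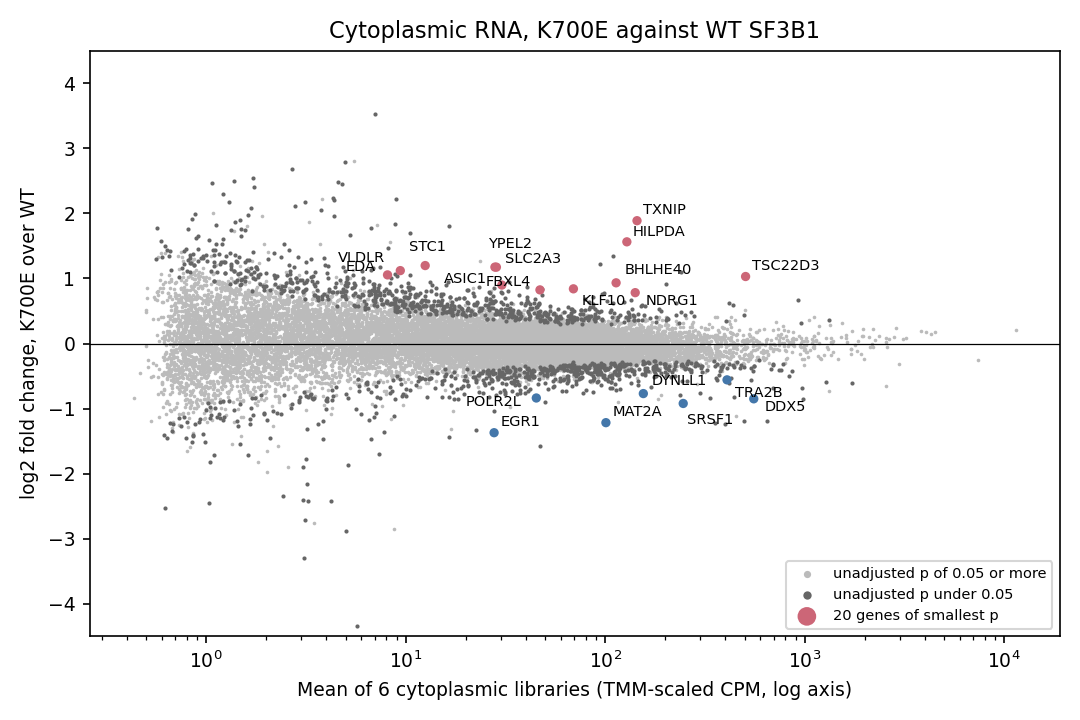
Each point is 1 of 15200 genes, by its mean level over the 6 cytoplasmic libraries (TMM-scaled CPM, log axis) and its log2 fold change of K700E over WT. Dark points have an unadjusted p under 0.05, and the 20 genes of smallest p that have an official symbol and a mean of at least 5 CPM are named, in red where higher and in blue where lower with K700E. By fold change TXNIP and HILPDA stand highest among the named genes, and EGR1 and MAT2A lowest.

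TXNIP, TSC22D3 and SLC2A3 were higher, and EGR1 was lower, in all 3 K700E libraries than in any WT library. TXNIP encodes thioredoxin-interacting protein, an alpha-arrestin that binds thioredoxin and restrains glucose uptake. It was at 49.0, 59.3 and 75.8 CPM in WT and at 386, 136 and 159.7 CPM in K700E. The first K700E library was the highest by far, and the other K700E libraries still lay above every WT library. The log2 fold change was 1.89 ± 0.36 SE, a 3.70-fold difference (edgeR adjusted p = 0.37, DESeq2 adjusted p = 3.7e-05, edgeR without both libraries numbered 3 adjusted p = 0.0073). TXNIP was also higher in the nuclear libraries, which the cytoplasmic fit did not use, at 86.8, 43.8 and 29.5 CPM in WT and 81.8, 234 and 117 CPM in K700E, a log2 fold change of 1.43 (edgeR adjusted p = 0.83). The nuclear groups overlapped, since the first K700E library lay below the first WT library. Without the first K700E library the cytoplasmic value was 1.27, which was the lowest of the 6 values with 1 library left out.

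ARRDC4 is the closest relative of TXNIP among the alpha-arrestins and, like it, a known target of the glucose sensor MondoA. ARRDC4 was at 43.8, 65.7 and 59.5 CPM in WT and 197, 111 and 86.4 CPM in K700E, a log2 fold change of 1.22 ± 0.29 SE (edgeR adjusted p = 0.47). In the nucleus the difference was 1.51 (edgeR adjusted p = 0.83). Of the 11 genes tested in the list of alpha-arrestins, MondoA partners and thioredoxins, these 2 were higher at p under 0.05 (18.2%, background 4.92%) and 0 were lower, and the list median was -0.03, against 0.01 for all genes. ARRDC3 (0.46), MLXIP, which encodes MondoA (-0.31), and TXN, which encodes thioredoxin (-0.24), did not pass an unadjusted p of 0.05.

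The promoters of TXNIP, ARRDC4 and EGR1 are printed because these genes are known for the response elements that lie just upstream of their starts. Each sequence runs 5′ to 3′ on the gene's own strand from 250 bases before to 50 bases after the start that RefSeq gives on GRCh38.p14. Capitals mark a motif match. In TXNIP they mark the carbohydrate response pair, which is a pair of CACGNG units with 5 bases between them and is known to bind MondoA and its partner MLX. In ARRDC4 they mark the E-box CACGTG. In EGR1 they mark CArG boxes, in which CC and GG flank 6 bases that are each A or T and which are known to bind serum response factor.
TXNIP, chr1:145996530-145996829, minus strand: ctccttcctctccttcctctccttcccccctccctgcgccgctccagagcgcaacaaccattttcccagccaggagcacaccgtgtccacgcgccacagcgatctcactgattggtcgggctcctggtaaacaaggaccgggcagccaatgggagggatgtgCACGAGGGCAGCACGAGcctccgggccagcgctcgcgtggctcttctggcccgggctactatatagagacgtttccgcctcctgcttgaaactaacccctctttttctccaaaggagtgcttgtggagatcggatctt
ARRDC4, chr15:97960453-97960752, plus strand: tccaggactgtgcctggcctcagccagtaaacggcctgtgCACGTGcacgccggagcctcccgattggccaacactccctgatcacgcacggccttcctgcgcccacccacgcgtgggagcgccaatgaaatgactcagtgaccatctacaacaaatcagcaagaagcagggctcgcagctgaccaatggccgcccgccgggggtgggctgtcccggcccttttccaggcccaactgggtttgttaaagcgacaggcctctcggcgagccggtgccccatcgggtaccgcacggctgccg
EGR1, chr5:138465229-138465528, plus strand: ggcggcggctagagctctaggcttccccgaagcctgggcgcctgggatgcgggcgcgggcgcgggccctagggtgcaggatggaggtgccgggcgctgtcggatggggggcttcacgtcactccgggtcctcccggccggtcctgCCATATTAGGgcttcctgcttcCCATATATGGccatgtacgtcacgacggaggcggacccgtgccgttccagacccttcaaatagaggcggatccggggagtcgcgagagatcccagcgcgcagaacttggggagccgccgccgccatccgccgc

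Motifs were searched on both strands of the 300-base windows of 35116 RefSeq promoters. The carbohydrate response pair was in 20 of them (0.05695%), the TXNIP promoter included, where it begins 88 bases before the start. The ARRDC4 promoter had 0 matches to the pair. The E-box was in 7.256% of promoters, and it can lie inside a pair where the N of a unit is T. Among the promoters of named genes it was in ARRDC4, beginning 210 bases before the start, and in BHLHE40 and DDX5. The forkhead motif GTAAACA was in 3.423% of promoters and in those of TXNIP, 124 bases before the start, and DDX5. The TSC22D3 promoter had 0 matches to the forkhead motif. A CArG box was in 1.293% of promoters, and EGR1 has one that begins 105 and one that begins 83 bases before the start. The table held 15 of the 21 named genes looked up. A match describes these letters only, and binding was not measured.

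TSC22D3 encodes GILZ, a leucine-zipper protein that glucocorticoids and forkhead factors are known to induce. It had the smallest p among genes with an official symbol. It was at 273, 345 and 379 CPM in WT and 741, 606 and 691 CPM in K700E, with no overlap, a log2 fold change of 1.03 ± 0.15 SE or 2.04-fold (edgeR adjusted p = 0.36, DESeq2 adjusted p = 4.1e-05). In the nucleus it was at 130.3, 108 and 189 CPM in WT and 144, 159.6 and 153 CPM in K700E, where the groups overlapped (log2 0.10, edgeR adjusted p = 0.95). The difference between the cytoplasmic and the nuclear fold change was 0.96 and did not pass after adjustment over 20394 genes (edgeR adjusted p = 0.98). The locus, chromosome X from 107713221 to 107777342 in GENCODE 29 on GRCh38, overlaps NCBP2L, and whether the counting used strand is not given in the sources used here.

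EGR1 is a zinc-finger transcription factor of the immediate early class, induced through ERK and serum response factor. It was at 33.6, 40.5 and 46.0 CPM in WT and 12.1, 11.8 and 22.5 CPM in K700E, so its level in WT was 2.59 times that in K700E (log2 -1.37 ± 0.27 SE, edgeR adjusted p = 0.37, DESeq2 adjusted p = 0.00078). The third K700E library lay nearest to WT, and without both libraries numbered 3 the adjusted p was 0.00094. The nuclear difference was -0.68 (edgeR adjusted p = 0.83). The other immediate early genes did not share one direction. Of 31 immediate early genes tested, 3 were higher at p under 0.05 (9.68%, background 4.92%), namely KLF10 (0.84), RHOB (0.92) and KLF6 (0.45), and 3 were lower (background 4.11%), namely EGR1, EGR3 (-1.08) and FOSL1 (-0.64). KLF10, a TGF-beta inducible repressor, was at 46.4, 52.2 and 50.4 CPM in WT and 104, 86.1 and 77.0 CPM in K700E (log2 0.84 ± 0.15 SE, edgeR adjusted p = 0.37).

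Most genes known to be induced in hypoxia through HIF had positive log2 fold changes, although none passed edgeR's adjusted p with all 6 libraries. Of 25 tested, 23 had a positive log2 fold change, 13 were higher at p under 0.05 (background 4.92%) and 0 were lower, and their median was 0.39 against 0.01 for all genes. The summed level of 26 such genes was 2078, 2409 and 2389.7 CPM in WT and 3046, 3169 and 3299.9 CPM in K700E, with no overlap. Without both libraries numbered 3 the count was again 13 higher and 0 lower (background 9.95%), and 7 of them passed after adjustment (background 0.982%). DESeq2 with all 6 libraries called 4 (background 0.217%). With 1 library left out the list median ranged from 0.31 to 0.49. In the nucleus the list median was 0.26, with 22 of 25 positive.

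HILPDA, a protein of lipid droplets that blocks triglyceride breakdown, had the largest of these differences among genes over 5 CPM. It was at 46.1, 78.5 and 70.2 CPM in WT and 119, 184 and 273 CPM in K700E, where the third library was highest and the first lowest (log2 1.56 ± 0.30 SE, edgeR adjusted p = 0.37, DESeq2 adjusted p = 0.00013). HILPDA did not follow in the nucleus, at 21.2, 69.8 and 60.2 CPM in WT and 38.9, 42.1 and 59.3 CPM in K700E (log2 -0.11), and the difference between fractions was 1.68 (edgeR adjusted p = 0.98). BHLHE40, a clock-linked repressor, was at 64.4, 87.0 and 82.5 CPM in WT and 130.3, 158 and 158 CPM in K700E (log2 0.93 ± 0.16 SE, edgeR adjusted p = 0.37). NDRG1, a stress-induced growth regulator, was at 88.0, 105 and 119 CPM in WT and 157, 180.5 and 199 CPM in K700E (log2 0.78 ± 0.15 SE). In these 3 genes the groups did not overlap, and the same held for STC2, P4HA1, INSIG2 and ANKRD37 among those at p under 0.05. P4HA1, a collagen prolyl hydroxylase (0.61), and INSIG2, a regulator of sterol synthesis (0.41), were also higher in the nucleus, by 0.78 (edgeR adjusted p = 0.83) and 0.91 (edgeR adjusted p = 0.83). The mitophagy receptors BNIP3L (0.64) and BNIP3 (0.45) and the kinase PDK1 (0.39) had a p under 0.05 with overlapping groups, since the third K700E library lay within the WT range. VEGFA (0.19), ADM (0.44) and EGLN3 (0.19) did not, and the mRNA of HIF1A, a subunit of the transcription factor HIF itself, was at -0.09. STC1, a secreted glycoprotein that is related to STC2, was at 7.36, 8.61 and 6.82 CPM in WT and 19.3, 20.9 and 12.2 CPM in K700E (log2 1.199 ± 0.245 SE, nucleus 1.02, edgeR adjusted p = 0.83).

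Genes of glucose transport and glycolysis were split. Of 25 tested, 5 were higher at p under 0.05 (20%, background 4.92%) and 0 lower, with a median of 0.19. The median was -0.01 without the third K700E library alone and 0.21 without both libraries numbered 3, so it moved with the choice of libraries. The summed level of the 27 genes overlapped between groups, at 9125, 9079.9 and 11369 CPM in WT and 8368, 9885 and 11567 CPM in K700E. SLC2A3, the high-affinity glucose transporter GLUT3, was at 17.6, 20.1 and 14.0 CPM in WT and 30.9, 45.2 and 40.3 CPM in K700E, with no overlap (log2 1.17 ± 0.21 SE, 2.26-fold, edgeR adjusted p = 0.37, DESeq2 adjusted p = 0.00059). Its nuclear levels overlapped (log2 0.25, edgeR adjusted p = 0.87). Reads of SLC2A3 may be shared with its close copy SLC2A14, which was at 0.835, 0.494 and 0.277 CPM in WT and 1.31, 1.33 and 0.421 CPM in K700E. HK2, an inducible hexokinase, was at 141, 118 and 124 CPM in WT and 195, 188 and 187 CPM in K700E (log2 0.57 ± 0.12 SE, edgeR adjusted p = 0.47). ENO2, the neuronal enolase, was at 29.8, 38.8 and 38.8 CPM in WT and 66.0, 60.6 and 54.4 CPM in K700E (log2 0.75 ± 0.16 SE). SLC2A12 (0.65) and the regulator PFKFB4 (0.49) also had a p under 0.05. The abundant housekeeping enzymes did not follow them, with TPI1 at -0.22, PGAM1 at -0.29 and PGK1 at 0.19.

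**Figure D3:**
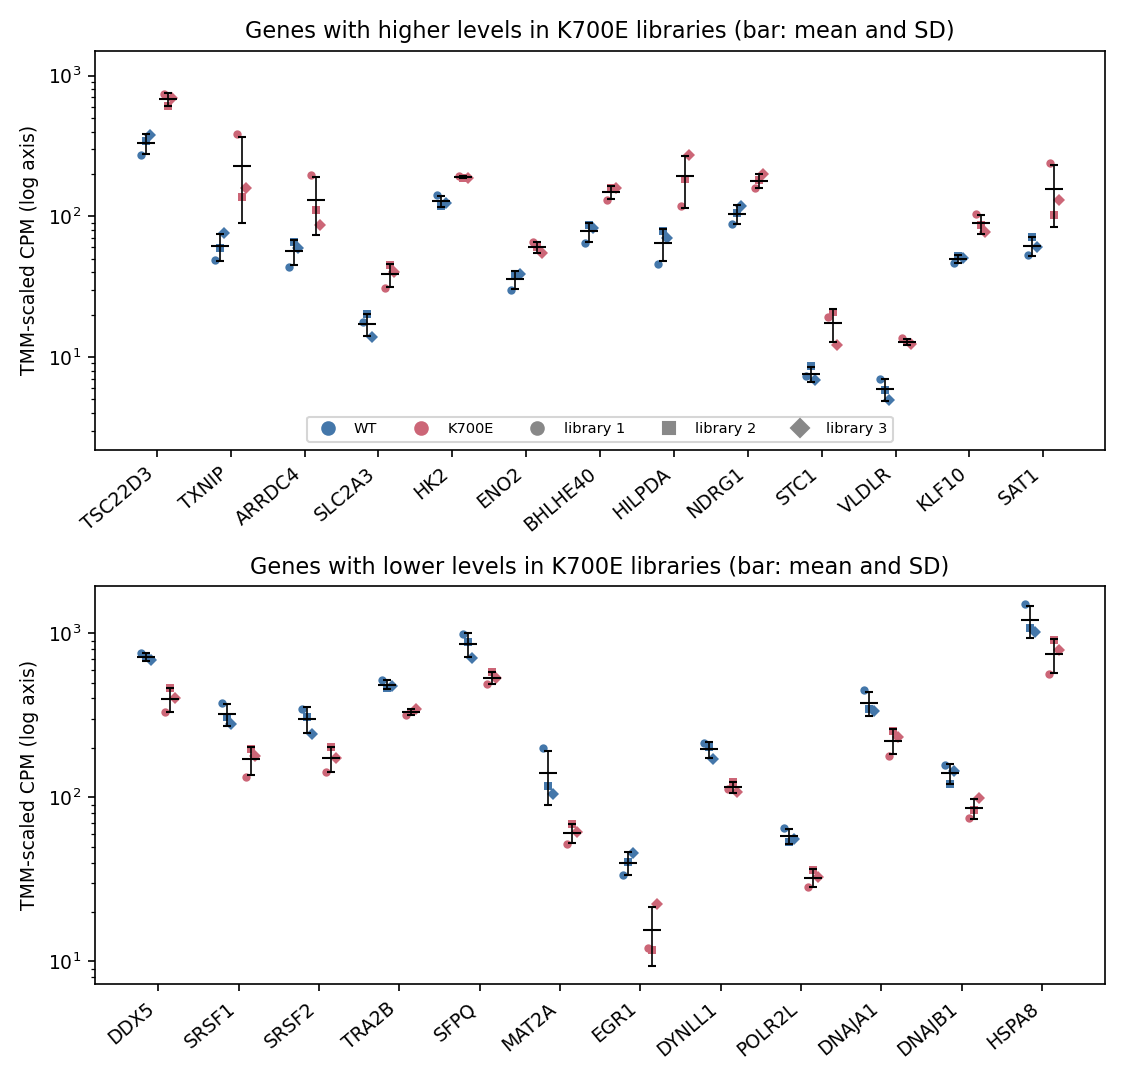
Level of named genes in each cytoplasmic library (TMM-scaled CPM, log axis), with the mean and SD of 3 libraries as bars, WT in blue and K700E in red, and a marker shape for each library number. The upper panel holds genes that were higher and the lower panel genes that were lower in the K700E libraries. In all 25 genes drawn, which were chosen with their values known, the groups do not overlap (background 7.66% higher and 7.94% lower).

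Genes that forkhead (FOXO) factors are known to induce also had mostly positive values. Genes of the ATF4 and unfolded protein responses did so by a smaller share. Of 29 FOXO-type genes tested, 26 were positive, 6 were higher at p under 0.05 (20.7%, background 4.92%) and 0 lower, and the median was 0.31. The 6 are TSC22D3, TXNIP, KLF9, MXI1, PDK4 and CITED2, of which MXI1 and CITED2 were in the hypoxia list too. KLF9, a glucocorticoid-responsive factor, was at 82.0, 81.1 and 74.9 CPM in WT and 163, 117 and 94.8 CPM in K700E (log2 0.66 ± 0.19 SE), and was higher in the nucleus by 0.75 (edgeR adjusted p = 0.83). Of 15 genes of the TSC22 family and of glucocorticoid response, 3 were higher at p under 0.05 (20%, background 4.92%), TSC22D3, KLF9 and ZBTB16 (0.57), and 0 lower. Of 33 ATF4 and unfolded protein response genes, 21 were positive and 12 negative, with a median of 0.18. In the nucleus 16 were positive and 17 negative, with a median of -0.07. At p under 0.05 in the cytoplasm, 8 were higher (24.2%, background 4.92%) and 0 lower. Those 8 include VLDLR, a lipoprotein receptor, at 6.98, 5.86 and 4.94 CPM in WT and 13.6, 12.7 and 12.3 CPM in K700E (log2 1.12 ± 0.22 SE). They also include the folate enzymes ALDH1L2 (0.53) and MTHFD2 (0.43), the cystine transporter SLC7A11 (0.39) and the factors DDIT3 (0.68) and CEBPG (0.50). The mRNA of ATF4 itself was at -0.21, and the endoplasmic reticulum factors MANF (-0.32) and CRELD2 (-0.37) had negative values. Without both libraries numbered 3 this list held 14 higher (background 9.95%) and 7 lower (background 11.1%), so its one-sided count depends on those libraries.

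Most genes with known detained introns had negative log2 fold changes in the cytoplasm, although none passed edgeR's adjusted p with all 6 libraries. The list holds several genes of splicing factors, whose mRNAs are known for detained introns and poison exons, by which a transcript is held in the nucleus or degraded and the protein's own level is controlled. Of 29 genes tested in a list of genes with known detained introns, 14 were lower at p under 0.05 (background 4.11%) and 0 were higher, and 26 of 29 had a negative log2 fold change, with a median of -0.31 against 0.01 for all genes. The groups did not overlap for 15 of them that were lower (background 7.94%). The summed level of 30 such genes was 7558, 7118 and 6495 CPM in WT and 5271, 5566 and 4994 CPM in K700E, with no overlap. Without both libraries numbered 3 the count was 18 lower and 0 higher (background 11.1%), and 9 of them passed after adjustment (background 1.37%). DESeq2 called 5 with all 6 libraries (background 0.132%), and with 1 library left out the median ranged from -0.37 to -0.26.

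DDX5, an RNA helicase of splicing and transcription, was at 759, 702 and 683 CPM in WT and 329, 461 and 400.0 CPM in K700E (log2 -0.85 ± 0.15 SE, edgeR adjusted p = 0.37, DESeq2 adjusted p = 0.0013). Its relative DDX17 was at 567, 507 and 437 CPM in WT and 265, 401 and 330.2 CPM in K700E (log2 -0.60 ± 0.17 SE, edgeR adjusted p = 0.5). Both had non-overlapping groups, and the first K700E library was the lowest in each. MAT2A makes the methyl donor S-adenosylmethionine and is known for a detained intron that responds to that product. It was at 200.1, 118 and 105 CPM in WT and 52.2, 68.7 and 61.1 CPM in K700E (log2 -1.22 ± 0.24 SE, edgeR adjusted p = 0.37), and without the first WT library the log2 fold change was -0.88. TRA2B, an SR-like splicing activator, was at 521, 461 and 477 CPM in WT and 316, 332 and 344 CPM in K700E (log2 -0.56 ± 0.12 SE), and its paralogue TRA2A at 259, 238 and 218 and 176, 167 and 171 CPM (log2 -0.48 ± 0.12 SE). The cyclin-like genes CCNL1 (-0.49) and CCNL2 (-0.45) and the U1-associated LUC7L (-0.65) and LUC7L3 (-0.57) had a p under 0.05 as well. SON (-0.30), OGT (-0.24) and RBM39 (-0.19) did not. The loci of DDX5 and MAT2A overlap CEP95 and GGCX.

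In the nucleus most genes of the list had positive values. Of the 29, 22 had a positive nuclear log2 fold change, and the nuclear median was 0.25. Of the same 29, 20 were at once negative in the cytoplasm and positive in the nucleus, against 2831 of all 14354 genes tested in both. None of these nuclear differences passed after adjustment. The nuclear WT libraries varied widely, for DDX5 at 2618, 864 and 1333 CPM against 2324, 1944 and 1885 CPM in K700E and for MAT2A at 912, 119 and 363 CPM against 682, 320.4 and 509.7 CPM. The difference of the 2 fold changes was tested in a fit of all 12 libraries, which shares the cytoplasmic libraries with the comparison above. It had a p under 0.05 and a negative sign for 10 of the 29, where 1.02% of 20394 genes did so, and for 0 with a positive sign (2.28%). The 10 were CCNL1 (-1.11), TRA2A (-1.005), DDX17 (-1.03), LUC7L3 (-1.22), DDX5 (-1.18), SRSF2 (-1.03), OGT (-0.72), SRSF11 (-0.70), NKTR (-0.65) and TIA1 (-0.66). No gene passed this test after adjustment (edgeR, 0 of 20394, 672 or 3.3% at an unadjusted p under 0.05, smallest adjusted p = 0.77, and DESeq2 called 3), so a difference between the fractions was not established for any single gene.

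**Figure D4:**
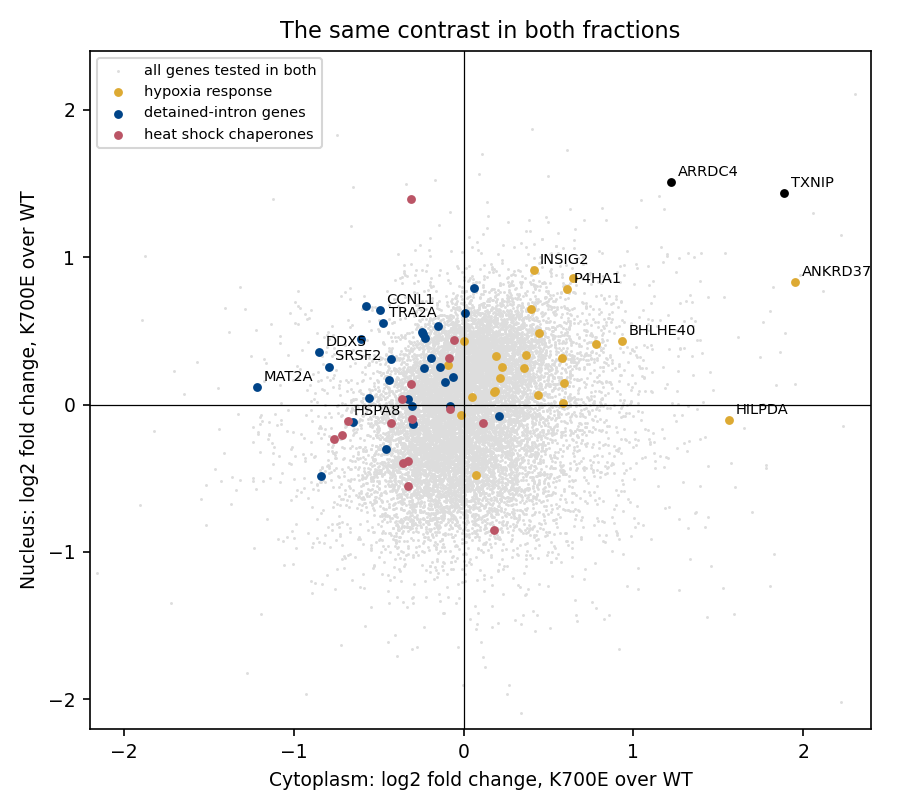
Log2 fold change of K700E over WT in the cytoplasm (x axis) and in the nucleus (y axis) for all genes tested in both (grey, 17 of them outside the range drawn), hypoxia genes (yellow), detained-intron genes (blue), heat shock chaperones (red) and TXNIP and ARRDC4 (black). Most blue points lie to the left of 0 and above 0, and most yellow points lie to the right of 0 and above 0.

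The SRSF genes encode the serine- and arginine-rich proteins that bind exonic enhancers and, in part, act as adaptors for NXF1. They were gathered as a family after their values had been seen, so their counts, like those of the other lists, describe them and support nothing further. SRSF2, SRSF4, SRSF5, SRSF6 and SRSF11 are also in the detained-intron list. Of 12 tested, 11 had a negative cytoplasmic log2 fold change and 7 of these had a p under 0.05 (58.3%, background 4.11%), with a median of -0.43, while 10 of 12 were positive in the nucleus, with a median of 0.22. The family sum was 4307, 4131 and 3788 CPM in WT and 2940.3, 3352 and 2949 CPM in K700E. SRSF1 was at 377, 310.4 and 279 CPM in WT and 133, 198 and 179 CPM in K700E (log2 -0.92 ± 0.18 SE, edgeR adjusted p = 0.37, DESeq2 adjusted p = 0.0033). In the nucleus SRSF1 was at 506, 179 and 308 CPM in WT and 494, 669 and 324 CPM in K700E (log2 0.58, edgeR adjusted p = 0.83), and the difference between fractions was -1.48 (edgeR adjusted p = 0.98). SRSF2 was at 347, 310.0 and 242 CPM in WT and 142, 202 and 174 CPM in K700E (log2 -0.79 ± 0.18 SE). SRSF3 and SRSF7, the adaptors for NXF1, were at -0.50 and -0.53 and had non-overlapping groups. SRSF4 (-0.08), SRSF10 (-0.10) and SRSF12 (0.10) lay near 0. Among 18 hnRNP genes, gathered the same way, 4 were lower at p under 0.05 (22.2%, background 4.11%), with a cytoplasmic median of -0.21 and a nuclear median of 0.20.

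Most genes of the export and U2 machinery also had negative values. Of 29 THO, TREX and export genes tested, 24 were negative and 6 were lower at p under 0.05 (20.7%, background 4.11%) with 0 higher (median -0.17). The 6 were SRSF3, SRSF7, the receptor NXF1, the adaptor ALYREF, the helicase DDX39A and ERH. NXF1 was at 99.3, 85.2 and 87.0 CPM in WT and 53.3, 64.7 and 72.0 CPM in K700E (log2 -0.51 ± 0.15 SE, edgeR adjusted p = 0.5), and its nuclear value was -0.46 (edgeR adjusted p = 0.83). ALYREF was at 262, 241 and 287 CPM in WT and 147, 179.6 and 233 CPM in K700E (log2 -0.50 ± 0.17 SE). THOC5, the THO subunit that the series title names, was at 100.0, 91.4 and 112 CPM in WT and 100.3, 94.0 and 109 CPM in K700E, with a log2 fold change of 0.00 ± 0.14 SE and a 95% interval from -0.31 to 0.30. Of 24 genes listed for the U2 snRNP and the SF3 complexes, 20 were negative, with a median of -0.13. At p under 0.05, 4 were lower (16.7%, background 4.11%), namely SF3B4 (-0.48), SF3B5 (-0.58), PHF5A (-0.37) and SF1 (-0.37). SF1 is in the list as a branch-point factor and is not a subunit of these complexes. Genes known for changed splicing with mutant SF3B1 showed no common direction at the level of whole genes. Of 19 tested, 1 was higher (SEPTIN6, 0.41) and 1 lower (UQCC1, -0.37) at p under 0.05, each 5.26% of the list, and the median was -0.01. Splice junctions were not analysed here.

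Most heat shock chaperones had negative log2 fold changes. Of 16 tested, 14 were negative, 6 were lower at p under 0.05 (37.5%, background 4.11%) and 0 higher, and the median was -0.32. None passed edgeR's adjusted p with all 6 libraries. Without both libraries numbered 3 the count was 8 lower at p under 0.05 (background 11.1%), and 2 of them passed after adjustment (background 1.37%). The J-protein DNAJB1, a sensitive target of HSF1, was at 158, 119.8 and 144 CPM in WT and 74.8, 83.5 and 98.4 CPM in K700E (log2 -0.72 ± 0.16 SE, edgeR adjusted p = 0.47). DNAJA1 was at 449, 345 and 335 CPM in WT and 179.7, 252 and 232 CPM in K700E (log2 -0.76 ± 0.17 SE). HSPA8, the constitutive HSP70, was at 1511, 1081 and 1012 CPM in WT and 559.9, 902 and 784 CPM in K700E (log2 -0.68 ± 0.21 SE). All 3 had groups that did not overlap. The co-chaperones STIP1 (-0.36), BAG3 (-0.33) and AHSA1 (-0.32) were the others at p under 0.05. HSP90AB1 (0.11) and HSPB1 (0.18) had positive values. The nuclear median of the list was -0.11.

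Mitochondrially encoded mRNAs, which make core subunits of the respiratory chain inside mitochondria, were lower in K700E than in 2 of the 3 WT libraries. Their sum was 16024, 11702 and 3795 CPM in WT and 5213, 6145 and 6032 CPM in K700E, so the third WT library lay below all K700E libraries. The log2 difference of the sums was -0.63 (exact permutation p = 0.4, adjusted p = 0.4). Of 13 mRNAs tested, 13 were negative, 7 had a p under 0.05 (53.8%, background 4.11%) and the groups overlapped for all 13, with a median of -0.90. Without the third WT library, the one with the lowest sum, the median was -1.33 and 10 passed after adjustment, which were all the calls of that fit. Without both libraries numbered 3 the median was -1.35 and all 13 passed, where 1.37% of all genes were called lower. Whether the fractions held different amounts of mitochondria was not tested. The nuclear-encoded subunits of the respiratory chain had tighter values. Of 73 tested, 65 were negative, 9 were lower at p under 0.05 (12.3%, background 4.11%) and 0 higher, with a median of -0.19 in the cytoplasm and -0.19 in the nucleus. Their sum was 8920.3, 9095 and 8750.1 CPM in WT and 7902, 7844 and 8101 CPM in K700E, with no overlap.

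**Figure D5:**
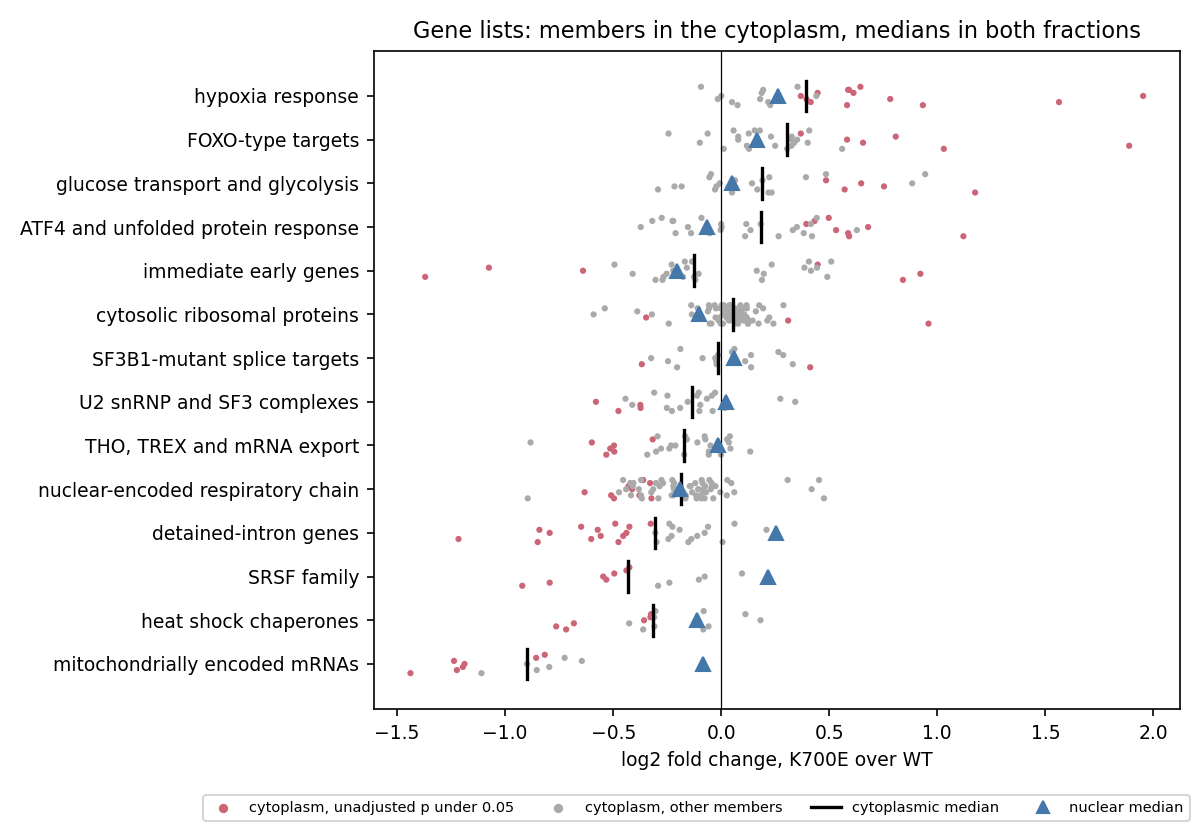
Log2 fold change of K700E over WT in the cytoplasm for each tested member of 14 gene lists (points, red where the unadjusted p is under 0.05), with the cytoplasmic median of the list (black bar) and its nuclear median (blue triangle). The 2 medians lie on opposite sides of 0 for detained-intron genes (-0.31 and 0.25) and for the SRSF family (-0.43 and 0.22). They also do so, with smaller values, for ATF4 and unfolded protein response genes (0.18 and -0.07) and ribosomal proteins (0.05 and -0.10). The same holds for U2 and SF3 genes (-0.13 and 0.02) and SF3B1-mutant splice targets (-0.01 and 0.06). They lie on the same side for hypoxia genes, FOXO-type genes and heat shock chaperones, among others.

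Polyamine genes had values in both directions. SAT1, which acetylates spermidine and spermine for export, was at 52.7, 71.4 and 60.8 CPM in WT and 239, 102 and 129.7 CPM in K700E (log2 1.35 ± 0.29 SE, edgeR adjusted p = 0.47, DESeq2 adjusted p = 0.0016). The synthesis enzymes ODC1 and AMD1 had lower values, ODC1 at 449.8, 419 and 429 CPM in WT and 296, 303 and 328 CPM in K700E (log2 -0.48 ± 0.12 SE) and AMD1 by -0.36 on the log2 scale. Of 9 genes tested, these 3 were the only ones with a p under 0.05, 1 higher (11.1%, background 4.92%) and 2 lower (22.2%, background 4.11%). The remaining genes among the 20 of smallest p with a symbol and a mean of at least 5 CPM have varied functions. DYNLL1, a dynein light chain, was at 215, 202 and 171 CPM in WT and 113, 124 and 108 CPM in K700E (log2 -0.77 ± 0.14 SE). POLR2L, a small subunit shared by the RNA polymerases, was at 64.7, 53.6 and 55.5 CPM in WT and 28.3, 36.1 and 32.9 CPM in K700E (log2 -0.84 ± 0.16 SE). Its locus overlaps CD151. Higher values were found for YPEL2 (1.17), the tumour necrosis factor ligand EDA (1.06), the proton-gated channel ASIC1 (0.90) and the mitochondrial F-box protein FBXL4 (0.82). YPEL2 and FBXL4 were also higher in the nucleus, by 0.97 (edgeR adjusted p = 0.83) and 0.72 (edgeR adjusted p = 0.83), whereas ASIC1 was at -0.15 there. All 20 of these genes had groups that did not overlap (background 7.66% higher and 7.94% lower) and kept their sign in each of the 20 alternative fits. The genes were chosen by smallest p in the same libraries, so both traits largely follow from the choice and are no further support.

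Further lists are given by their counts at p under 0.05, for which the background was 4.92% higher and 4.11% lower. Of 78 ribosomal protein genes tested, 2 were higher (2.56%) and 1 lower (1.28%), with a median of 0.05. Of 42 DNA replication genes, 1 was higher (2.38%) and 3 lower (7.14%), with a median of -0.11, and of 28 mitosis genes 0 were higher and 1 lower (3.57%). Of 411 zinc-finger ZNF genes, 7 were higher (1.70%) and 19 lower (4.62%). Among 18 interferon-stimulated genes (median 0.22), 1 was higher (5.56%), namely IFI44L, at a mean of only 1.03 CPM in WT and 2.11 CPM in K700E. Without both libraries numbered 3, 5 of the interferon-stimulated genes were higher (background 9.95%). Of 25 p53 targets (median -0.17), 2 were lower (8%), namely PHLDA3 (-0.67) and PLK2 (-0.54), and 0 higher. Without both libraries numbered 3, 9 of the p53 targets were lower (background 11.1%) and 1 higher (background 9.95%), with a median of -0.26, so their count depends on those libraries. Of 9 NF-kappaB targets (median 0.05), 2 were higher (22.2%), namely BIRC3 (1.41) and NFKB2 (0.59), and 0 lower. BIRC3 was low, at a mean of 0.95 CPM in WT and 2.50 CPM in K700E, and its groups overlapped. In the nucleus BIRC3 was at 0.35 and NFKB2 at -0.31. The nuclear-retained RNAs MALAT1 and NEAT1 had log2 fold changes of 0.29 ± 0.38 and 0.08 ± 0.15 SE. Markers of the line were present and those of blood and endothelium were near 0. The 7 fibroblast and matrix markers summed to between 14.8 and 26.3 CPM over the 6 libraries, with COL1A1 highest at a mean of 17.1 CPM. Kidney tubule markers, also 7, summed to between 10.1 and 15.3 CPM, with LRP2 highest at a mean of 10.7 CPM. All 7 genes of the HEK293 list were tested, of which the neurofilament genes NEFM (0.76) and NEFL (0.42) were higher (28.6%) and INA (-0.45) was lower (14.3%) at p under 0.05, and their sum ranged from 560 to 705 CPM in WT and from 670 to 822 CPM in K700E. Sums of blood markers stayed between 0.465 and 1.10 CPM over the 6 libraries, with CD3E, HBB, HBG1 and HBG2 at 0 in all, and those of endothelial markers between 0.421 and 0.803 CPM.

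Genes that were lower and genes that were higher differed in their structure. The 545 protein-coding genes that were lower at p under 0.05 had a median transcript length of 3044 nucleotides, 7 exons, a gene span of 17.4 kb and 48.9% GC. The 633 that were higher had 4656 nucleotides, 11 exons, 58.3 kb and 46.3% GC, and all 12614 tested had 3815 nucleotides, 10 exons, 36.0 kb and 47.9% GC. The lower genes were also the more abundant, with a median of 69.7 CPM against 15.5 CPM for the higher ones and 31.8 CPM for all. Transcript GC content also set the libraries numbered 3 apart, and its part in these medians was not tested. Among 1358 long non-coding genes, 70 were higher and 34 lower at p under 0.05, against 748 (4.92%) and 625 (4.11%) of all 15200 genes. The share of long non-coding genes that were higher thus lay near its background, and the share that were lower lay below it.

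The nuclear libraries gave values for the same contrast, with more spread. Whether they came from the same cultures as the cytoplasmic libraries is not stated in the labels, so a shared sign need not be an independent repeat. The biological coefficient of variation was 0.349 in the nucleus and 0.222 in the cytoplasm. Of 18623 genes tested in the nucleus, 0 passed edgeR's adjusted p (0%), 695 had an unadjusted p under 0.05 (3.73%) and DESeq2 called 1. Of 719 genes that were higher in the cytoplasm at p under 0.05 and tested in both, 71.5% were also positive in the nucleus, with a nuclear median of 0.27. Of 607 that were lower, 70.5% were also negative there, with a median of -0.18, where 58.8% of all 14354 genes had the same sign in both fractions. Among the 20 named genes of smallest p the sign was the same for 14. The 6 with opposite signs were DDX5, SRSF1, MAT2A, TRA2B, HILPDA and ASIC1, of which the first 4 encode splicing factors or carry known detained introns.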

How the data were processed

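Each library has a deposited table of raw counts per gene, and counts were whole numbers for 67049 gene IDs. Per the submitters' processing notes, the authors used HISAT2 and DESeq. Not given in the sources used here are the counting program, its use of strand, the build and the annotation. Gene types, lengths and positions were those of GENCODE 29 on GRCh38, which held 58440 of the IDs and 99.7% of counts, and 60463 IDs had a symbol. Promoters came from RefSeq tables on GRCh38.p14.

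Counts of the 6 cytoplasmic libraries went through edgeR 4.0.16 (R 4.3.3) and its quasi-likelihood F test after TMM scaling and the default filterByExpr, with a minimum count of 10 and a minimum total of 15, and Benjamini-Hochberg adjusted p under 0.05. The 6 nuclear libraries were fitted the same way, and all 12 for the difference between the fractions. Levels are TMM-scaled CPM, and errors of fold changes are standard errors (SE). Named genes were the 20 of smallest p with a mean of at least 5 CPM and an official symbol, since fewer than 5 were called, up to 2 members of smallest p of each of 33 lists, TXNIP, TSC22D3, EGR1, SLC2A3, SF3B1, THOC5, NXF1, MALAT1 and NEAT1. Other list members named were chosen after their values were seen, as were the SRSF and hnRNP families. The comparison, its members and all lists were chosen with earlier results of these data known. Alternatives used other scalings and filters, DESeq2 1.42.0, limma 3.58.1 voom, a replicate block, a correction for GC content, a minimum fold of 1.2, all 12 libraries in 1 fit, and each library left out. The fits were tested on simulated counts. No 2 libraries held identical values.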

Additional observations from a re-analysis of the deposited data

How the results depend on the processing

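The count of called genes in the cytoplasm, 0 with edgeR, was 0 with DESeq2's size factors in edgeR, library size alone, upper quartile factors, a filter of 1 CPM, limma voom, the GC correction and a minimum fold of 1.2. It was 78 with no filter beyond 1 count (44 higher and 34 lower), 53 with DESeq2, 29 with voom and library quality weights (18 higher and 11 lower), 1 with all 12 libraries in the fit, and 359 without both libraries numbered 3. With 1 library left out it ranged from 0 to 10. The 10 were found without the third WT library, and all of them were mitochondrially encoded mRNAs that were lower with K700E. The cause of these differences was not tested. In the nucleus the count of 0 became 18 with no filter and 1 with DESeq2, 1 without both libraries numbered 3, and 0 to 14 with 1 library left out (14 without the first WT library). For the difference between fractions it became 33 with no filter, 3 with DESeq2 and 0 to 1 with 1 library left out. Among unadjusted p under 0.05 in the cytoplasm, 54.5% of genes were higher with all 6 libraries, 47.1% with the replicate block, 45.3% without the third K700E library and 47.2% without both libraries numbered 3.

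With the replicate number as a block, 13 genes were called (8 higher and 5 lower), 12 of them also by DESeq2, and with the block and the GC correction together 102 (44 higher and 58 lower). The deviations of same-numbered libraries from their group means correlated at 0.03, 0.26 and 0.49, and only the third pair correlated best with its own number on both sides, so the numbers were not taken as pairs.

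Over 75 named genes and all alternatives, 1340 of 1493 log2 fold changes kept their direction and their side of the threshold, 141 newly passed it and 12 changed sign. Of the 12, 10 were THOC5, at 0.0328 with library size alone, 0.0324 with upper quartile factors, 0.0022 with no filter, 0.0014 with the replicate block, 0.0258 with the GC correction, 0.0293 with both, 0.0193 without both libraries numbered 3, and -0.0749 to 0.0776 with 1 library left out (0.0776, 0.0061 and 0.0479 without the third WT and the first and second K700E libraries). NEAT1 was at -0.0248 without both libraries numbered 3 and PDGFRA ranged from -0.825 to 0.285 with 1 library left out, the latter without the second WT library. List medians moved by more than the spread in 7 of 660 values. The median half-width of the unadjusted 95% interval of a cytoplasmic log2 fold change was 0.50, and the part of sequencing depth in it was not tested.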

Other observations

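Some genes of low level also had non-overlapping groups and were called by DESeq2, outside the rule for named genes and chosen after their values were seen. PCK1, the rate-limiting enzyme of gluconeogenesis, had a mean of 1.05 CPM in WT and 4.56 CPM in K700E (log2 2.12, edgeR adjusted p = 0.36). NXPH3, a secreted neurexin ligand, had a mean of 0.542 CPM in WT and 2.95 CPM in K700E (log2 2.41, edgeR adjusted p = 0.36). SFPQ, a paraspeckle protein that also takes part in splicing, was likewise called by DESeq2 but was abundant, and it was lower with K700E. It was at 983, 880.1 and 709 CPM in WT and 493, 577 and 532 CPM in K700E (log2 -0.68 ± 0.15 SE, edgeR adjusted p = 0.47).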
